A study of Mus musculus with 30 samples.

Results

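The tibialis anterior, the muscle in front of the shin, was sequenced in mice after siRNA against Cyr61 and after an siRNA labelled NT. The 8 libraries are those whose labels give one of these siRNAs, 4 for each, out of 30 libraries in the series, and every gene of the table was considered. All 8 came from male C57BL/6J mice and are called biological replicates in the labels' protocol. NT is not spelled out there, and the ages of these mice and the way the siRNA reached the muscle are not given in the labels used here. The other 22 libraries come from the same muscle of mice of that sex and strain: dexamethasone (n = 4) with its control (n = 4), LLC cancer (n = 4) with its control (n = 4), and mice aged 24 months (n = 3) and 6 months (n = 3).

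Cyr61, also named Ccn1, encodes a secreted protein of the CCN family that is held in the extracellular matrix and binds integrins and heparan sulfate proteoglycans on the cell surface. Its gene is switched on quickly by serum, stretch and injury, and it is a textbook target of the cofactors YAP and TAZ, which act through TEAD factors in the Hippo pathway. An siRNA pairs with an mRNA and leads to its cleavage, so the Cyr61 mRNA itself is the first readout of the experiment.

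The Cyr61 gene (ENSMUSG00000028195.4) lies on chr3:145646976-145649981 of mm10. The 250 bases before the RefSeq start of the gene on the minus strand (chr3:145649986-145650235, GRCm38.p6, which is mm10) are shown because TEAD factors act at the Cyr61 promoter. Capitals mark the GGAATG motif of TEAD factors, here on the opposite strand and 103 bases before the start:
Cyr61: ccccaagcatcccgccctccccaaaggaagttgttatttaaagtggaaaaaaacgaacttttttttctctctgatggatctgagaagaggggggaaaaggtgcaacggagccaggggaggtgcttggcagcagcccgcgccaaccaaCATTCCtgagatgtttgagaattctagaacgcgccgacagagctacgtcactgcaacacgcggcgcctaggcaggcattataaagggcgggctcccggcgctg
The motif, searched on both strands, was in the 250 bases before the start of 12.6% of 27025 genes, and of 6 of 12 tested YAP and TAZ targets that have such a window. A match shows that the letters are there, not that a factor bound.

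Cyr61 mRNA was 30.6% lower with Cyr61 siRNA than with NT siRNA, but the groups overlapped. Its level in TPM, reads scaled for transcript length and library total, was 32.9, 52.8, 45.8 and 25.5 in Cyr61 siRNA replicates 1 to 4, against 57.0, 64.6, 67.8 and 36.8 in NT siRNA replicates 1 to 4. Cyr61 siRNA replicates 2 and 3 lay above NT siRNA replicate 4, which was far below the other NT siRNA libraries. The means were 39.2 ± 12.3 TPM with Cyr61 siRNA and 56.6 ± 13.9 TPM with NT siRNA (SD, n = 4 each). On the scale of log2(TPM + 1) the difference was -0.53 with a 95% interval of -1.10 to 0.03, and an exact permutation test over the 70 arrangements of the libraries gave p = 0.143 (two-sided; the smallest it can give is 0.0286). After scaling each library by the median ratio of its genes the difference was -0.62, with an exact permutation p of 0.0571. Taken by replicate number, Cyr61 was lower with Cyr61 siRNA in each same-numbered pair. An exact permutation test within these pairs gave p = 0.125, the smallest it can give. The level rested on 1133 to 2379 recovered reads per library with Cyr61 siRNA and 1735 to 2888 with NT siRNA, so counting error is small beside the spread between libraries.

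Across the rest of the series, Cyr61 averaged 47.5 ± 16.1 TPM after dexamethasone and 21.1 ± 2.56 TPM in its control, and 26.7 ± 11.7 TPM under LLC cancer and 19.5 ± 2.79 TPM in its control (SD, n = 4 each). It averaged 20.6 ± 2.92 TPM at 24 months and 13.9 ± 0.802 TPM at 6 months (SD, n = 3 each). The lowest Cyr61 siRNA library, at 25.5 TPM, was above every library of the dexamethasone control, the LLC control and both ages, whose highest value was 23.9 TPM. The dexamethasone libraries, at 35.7 to 70.6 TPM, and the LLC libraries, which reached 40.5 TPM, overlapped with both siRNA groups. No test was made between these experiments, which also differ in more than the siRNA.

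**Figure D1:**
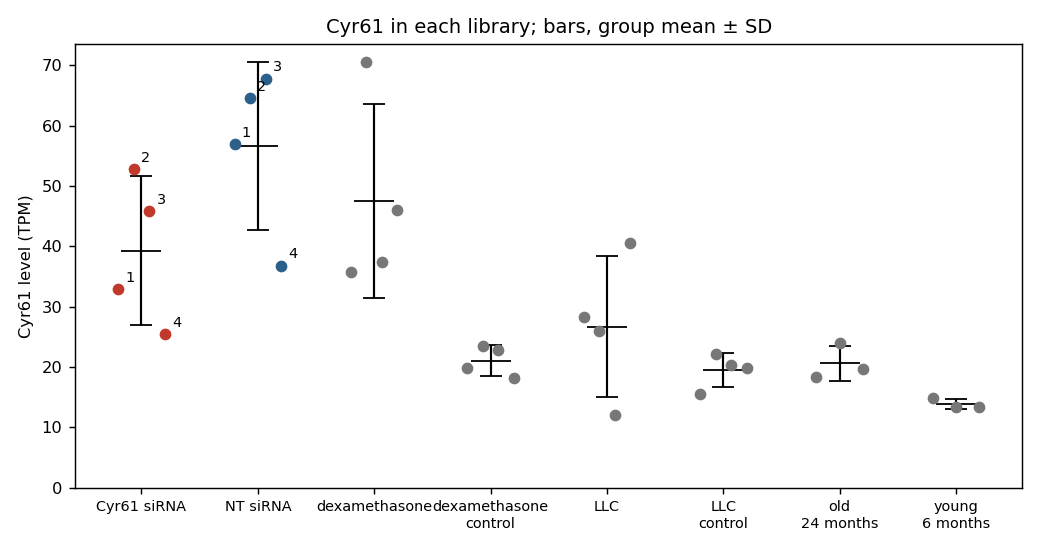
Cyr61 level in TPM in each of the 30 libraries by group, with the replicate number beside the siRNA libraries and bars for the group mean ± SD. The 4 Cyr61 siRNA libraries sit between 25.5 and 52.8 TPM and the 4 NT siRNA libraries between 36.8 and 67.8 TPM, so the groups overlap.

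Several of the 8 libraries stood apart in ways that cut across the siRNA groups. Whole reads could be recovered for 14109 genes, with totals of 26433608 to 30395406 reads with Cyr61 siRNA and 26335274 to 30123618 with NT siRNA, and mitochondrially encoded genes took 42.2% to 52.0% of TPM with Cyr61 siRNA and 47.4% to 57.2% with NT siRNA. The 12 muscle fibre markers, Acta1 and Ckm among them, had at least 1 TPM in at least 4 of the 8 libraries, as muscle should, with sums of 80130.3 to 108747 TPM with Cyr61 siRNA and 77779 to 100918 TPM with NT siRNA. Lymphocyte markers, which include immunoglobulin chains, summed to 129, 76.1, 5427 and 142 TPM in Cyr61 siRNA replicates 1 to 4, against 32.7, 365, 1261 and 2961 TPM in NT siRNA replicates 1 to 4. Cyr61 siRNA replicate 4 carried the most matrix and fibroblast mRNA, and both replicate 4 libraries carried the most interferon-stimulated mRNA and the least Fbxo32. Fewer cells of a type and less RNA per cell cannot be told apart in such bulk libraries.

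No gene passed the test between Cyr61 siRNA and NT siRNA muscle. limma (a linear model with moderated variances) on log2(TPM + 1) tested the 11006 genes with at least 1 TPM in at least 4 libraries, and 0 had a Benjamini-Hochberg adjusted p under 0.05 (0%). The smallest adjusted p was 0.999. At an unadjusted p under 0.05 there were 100 genes higher with Cyr61 siRNA (0.909%) and 9 lower (0.0818%). With a term for the replicate number these counts were 597 and 37, with 0 passing. limma voom on the recovered reads of 6891 genes called 0 as well, with 79 at an unadjusted p under 0.05. In the limma fit that number was 182 without Cyr61 siRNA replicate 1, 69 without Cyr61 siRNA replicate 3, 45 without NT siRNA replicate 1 and 262 without NT siRNA replicate 3. Cyr61 ranked 175 of 11006 by p, with an unadjusted p of 0.0626. The median 95% interval reached 0.29 to either side of a gene's difference, 99.1% of genes differed by less than 0.5 on the log2 scale, and 18 genes by 1 or more. The median gene was 0.07 higher with Cyr61 siRNA, and 8727 of 11006 genes (79.3%) lay above 0; after median-ratio scaling the median was 0.00 and the genes at an unadjusted p under 0.05 were 96 higher (0.874%) and 88 lower (0.801%). Differences below are Cyr61 siRNA minus NT siRNA on log2(TPM + 1), and none of them passed.

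**Figure D2:**
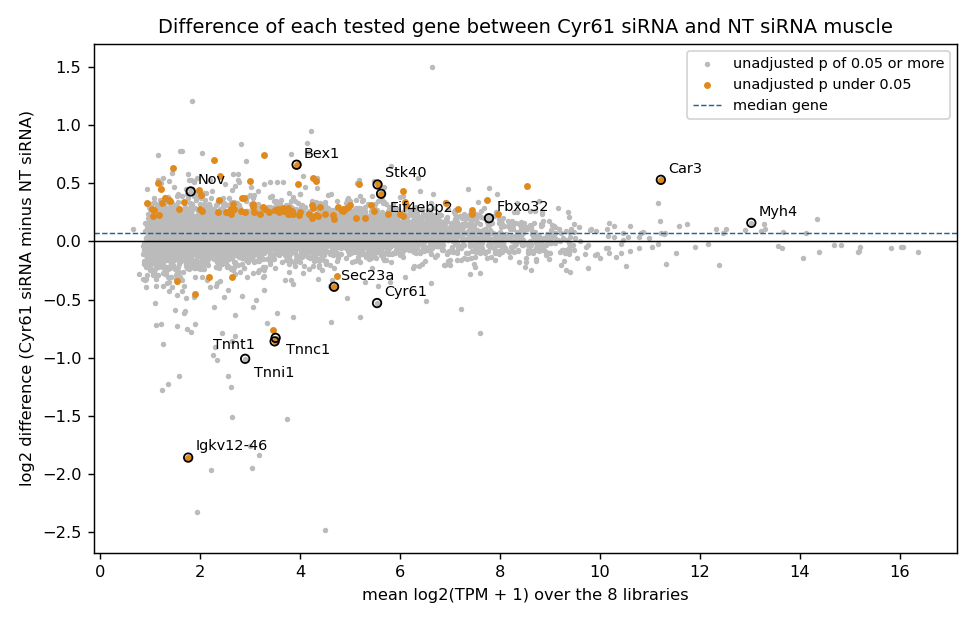
Difference of each of the 11006 tested genes (log2 scale, Cyr61 siRNA minus NT siRNA) against its mean level over the 8 libraries; orange points have an unadjusted p under 0.05 and the dashed line is the median gene. Named genes are circled, from Bex1 at 0.66 to Igkv12-46 at -1.86, and no gene passed the adjusted test.

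Among named genes averaging at least 5 TPM and higher with Cyr61 siRNA, the smallest p was that of Eif4ebp2, whose protein binds the cap-binding factor eIF4E and restrains translation. It was at 55.0, 55.0, 64.6 and 49.2 TPM in Cyr61 siRNA replicates 1 to 4, against 37.7, 42.1, 49.0 and 38.9 TPM in NT siRNA replicates 1 to 4. The groups did not overlap, with a difference of 0.41 (SE 0.12; limma unadjusted p = 0.00641). Stk40, at 55.8 ± 14.2 TPM with Cyr61 siRNA and 38.9 ± 6.26 TPM with NT siRNA (SD, n = 4 each), differed by 0.49, and its groups did not overlap either. Parp6, a mono-ADP-ribosyltransferase, stood out by its narrow spread: 16.4 ± 0.195 TPM with Cyr61 siRNA and 13.6 ± 0.677 TPM with NT siRNA (SD, n = 4 each). Further genes the naming rule took in this direction were Rnaseh1, which degrades RNA in RNA-DNA hybrids (0.25), the netrin receptor Unc5a (0.27), the smooth muscle myosin Myh11 (0.37), the transcription factor Sp2 (0.28), the chromatin protein Mllt1 (0.29) and Bex1 (0.66). In all, 105 of 11006 genes had Cyr61 siRNA values above every NT siRNA value (0.954%) and 4 had values below every NT siRNA value (0.0363%).

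Among genes lower with Cyr61 siRNA, Sec23a, a subunit of the COPII coat that carries secretory cargo out of the endoplasmic reticulum, had the smallest p. Its level was 22.4, 23.0, 20.7 and 19.6 TPM in Cyr61 siRNA replicates 1 to 4, against 28.0, 30.2, 31.3 and 24.3 TPM in NT siRNA replicates 1 to 4. Every Cyr61 siRNA library lay below every NT siRNA library, and the difference was -0.39 (SE 0.10; limma unadjusted p = 0.00429, adjusted p = 0.999). Sec23a was -0.48 after median-ratio scaling and -0.42 without both replicate 4 libraries. Pdss2, an enzyme of coenzyme Q synthesis (-0.31), Ano5, a muscle anoctamin (-0.30), the RNA-binding Lsm7 (-0.65) and Atp5e, a subunit of ATP synthase (-0.22), were the others with overlapping groups. Of 37 tested nuclear-encoded respiratory chain genes 35 were below 0, where 20.7% of all genes were. Their median was -0.08, and 0 were under an unadjusted p of 0.05. Without both replicate 4 libraries 36 were below 0, where 4762 of 10746 genes were, with a median of -0.12. Igkv12-46, an immunoglobulin variable segment, differed by -1.86; its value is uncertain, since reads shared between such segments may be split, and lymphocyte markers varied by library as given above.

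The slow troponins were lower with Cyr61 siRNA, without passing. Tnnt1, slow troponin T, was at 6.03, 6.34, 12.4 and 5.99 TPM in Cyr61 siRNA replicates 1 to 4, against 16.7, 14.7, 8.80 and 18.1 TPM in NT siRNA replicates 1 to 4. Cyr61 siRNA replicate 3 was above NT siRNA replicate 3, and the other 3 Cyr61 siRNA libraries were below every NT siRNA library; the difference was -0.86 (95% interval -1.44 to -0.27; limma unadjusted p = 0.00903). Tnnc1, the troponin C of slow and cardiac muscle, was at 8.03 ± 3.84 TPM with Cyr61 siRNA and 16.1 ± 9.24 TPM with NT siRNA (SD, n = 4 each), a difference of -0.83. Tnni1, slow troponin I, was at 2.11, 2.29, 14.4 and 3.88 TPM in Cyr61 siRNA replicates 1 to 4, against 14.2, 12.3, 8.57 and 5.48 TPM in NT siRNA replicates 1 to 4. Here Cyr61 siRNA replicate 3 held the highest value of all 8 libraries, and the difference was -1.01 (95% interval -2.10 to 0.08). Of 10 tested slow-fibre contractile genes 9 were below 0, where 20.7% of all genes were, and their median was -0.19; 1 of them, Tnnt1, was under an unadjusted p of 0.05. Summed over the 11 listed genes, slow-fibre mRNA was 179, 158, 473 and 141 TPM in Cyr61 siRNA replicates 1 to 4, against 274, 206, 183 and 249 TPM in NT siRNA replicates 1 to 4. Cyr61 siRNA replicate 3 is the library above the NT siRNA range. Without it all 10 genes were below 0 with a median of -0.44 and 5 were under an unadjusted p of 0.05, where 0.323% of all genes were lower at that threshold, and 0 passed. With any other single library left out, the median ran from -0.32 to -0.18, with 1 or 2 genes under that threshold. Without both replicate 4 libraries 7 of 10 were below 0, where 4762 of 10746 genes were, with a median of -0.12.

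Among the myosin heavy chains that set fibre type, the fast ones overlapped between the groups. Myh4, the IIB myosin that dominates this muscle, was at 8846 ± 871 TPM with Cyr61 siRNA and 8022 ± 1667 TPM with NT siRNA (SD, n = 4 each), a difference of 0.16. Myh1 (IIX) was at 2432 ± 357 TPM with Cyr61 siRNA and 2851 ± 869 TPM with NT siRNA, and Myh2 (IIA) at 201 ± 105 TPM with Cyr61 siRNA and 184 ± 117 TPM with NT siRNA (SD, n = 4 each). Myh7, the slow myosin, stayed under the filter, at 0.730 to 0.946 TPM with Cyr61 siRNA and 0.579 to 8.21 TPM with NT siRNA. In NT siRNA replicates 1 to 4 it was 2.88, 0.579, 0.698 and 8.21 TPM. Replicates 1 and 4 were thus above every Cyr61 siRNA library, and replicates 2 and 3 below.

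Of the other CCN genes, Ctgf (Ccn2), the closest relative of Cyr61 in function, was at 3.77, 5.57, 9.55 and 7.28 TPM in Cyr61 siRNA replicates 1 to 4, against 6.13, 5.07, 6.31 and 2.36 TPM in NT siRNA replicates 1 to 4. The groups overlapped, with a difference of 0.34 (95% interval -0.32 to 1.00). Nov (Ccn3) was at 17.0 TPM in Cyr61 siRNA replicate 4 and at 0.806 to 3.33 TPM in the other 7 libraries. Wisp2 (Ccn5) differed by -0.01, Wisp1 (Ccn4) was under 1 TPM in every library, and Wisp3 (Ccn6) was listed at 0 in 7 of 8 libraries. Among 10 tested genes for CCN1 receptors the median difference was 0.07, equal to that of all genes; the integrin subunit Itgb5, at 58.1 ± 6.57 TPM with Cyr61 siRNA and 46.7 ± 8.56 TPM with NT siRNA (SD, n = 4 each), came nearest to the threshold (0.32; limma unadjusted p = 0.0501). Of 19 genes of the Hippo core and its TEAD cofactors 18 were above 0, where 79.3% of all genes were, with a median of 0.10. After scaling 11 of 18 were above 0, where 5411 of 10983 genes were, with a median of 0.03. In that list 1 gene, Sav1, the scaffold of the Hippo kinases, was under an unadjusted p of 0.05. Sav1 was at 29.6 to 42.0 TPM with Cyr61 siRNA and 25.3 to 29.4 TPM with NT siRNA, without overlap (0.30). The 16 tested YAP and TAZ targets other than Cyr61 had a median of 0.12, with 0 under an unadjusted p of 0.05.

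Genes known for their part in muscle atrophy overlapped between the siRNA groups. Fbxo32, the ubiquitin ligase subunit atrogin-1, was at 267, 313, 262 and 137 TPM in Cyr61 siRNA replicates 1 to 4, against 265, 275, 271 and 86.5 TPM in NT siRNA replicates 1 to 4. Both replicate 4 libraries were low and the other 6 libraries lay close together, so the difference of 0.20 had a 95% interval of -0.68 to 1.09. Trim63, the ubiquitin ligase MuRF1, was at 361 ± 130.2 TPM with Cyr61 siRNA and 319.9 ± 161 TPM with NT siRNA (SD, n = 4 each). Mstn, the growth inhibitor myostatin, was at 15.5 ± 5.25 TPM with Cyr61 siRNA and 12.1 ± 4.28 TPM with NT siRNA (SD, n = 4 each). Of 15 ubiquitin ligases of the atrophy list 13 were above 0, where 79.3% of all genes were, with a median of 0.07, equal to that of all genes, and 0 under an unadjusted p of 0.05. After scaling 7 of 15 were above 0, where 5411 of 10983 genes were, with a median of -0.01. All 31 proteasome subunits were above 0, where 79.3% of all genes were, with a median of 0.20. Of these 2 were under an unadjusted p of 0.05, Psmc4 (0.31) and Psma2 (0.27), where 0.909% of all genes were higher at that threshold. Psmc4, an ATPase of the regulatory particle of the proteasome, was at 77.1 ± 9.83 TPM with Cyr61 siRNA and 61.9 ± 9.40 TPM with NT siRNA (SD, n = 4 each). After scaling 30 of 31 stayed above 0, where 5411 of 10983 genes were, with a median of 0.11. Without NT siRNA replicate 4 the median was 0.09, where that of all genes was 0.016.

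Markers of the cell types around the fibres moved by library. Macrophage markers had 12 of 15 members below 0, where 20.7% of all genes were, with a median of -0.15. Without both replicate 4 libraries all 14 tested were below 0, where 4762 of 10746 genes were. Their median was then -0.64, and 0 were under an unadjusted p of 0.05. The markers summed to 112, 115, 509 and 487 TPM in Cyr61 siRNA replicates 1 to 4, against 288, 359, 442 and 141 TPM in NT siRNA replicates 1 to 4. Both groups hold high and low libraries, and the groups overlap. Fibroadipogenic progenitor markers (the fibroblast-like cells of muscle) had a median of 0.09 over 14 members, adipocyte markers 0.43 over 9, Schwann cell markers 0.31 over 7, endothelial markers 0.12 over 17 and satellite cell and regeneration markers -0.04 over 12. Car3, which is abundant in adipocytes and also expressed in muscle fibres, was the highest of the adipocyte list, at 2939 ± 858 TPM with Cyr61 siRNA and 2023 ± 495 TPM with NT siRNA (SD, n = 4 each), with a difference of 0.53 and a limma unadjusted p of 0.0368. The defining keratinocyte markers were near 0: 6 of 8 were under 1 TPM in every library and the list summed to at most 2.72 TPM. Among responses that an siRNA could set off, 25 tested interferon-stimulated genes had a median of 0.05 and 17 genes of the small-RNA machinery and RNA sensors a median of 0.07, with 0 members of either list under an unadjusted p of 0.05. Both groups received an siRNA, so this contrast cannot show a response that both siRNAs set off.

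**Figure D3:**
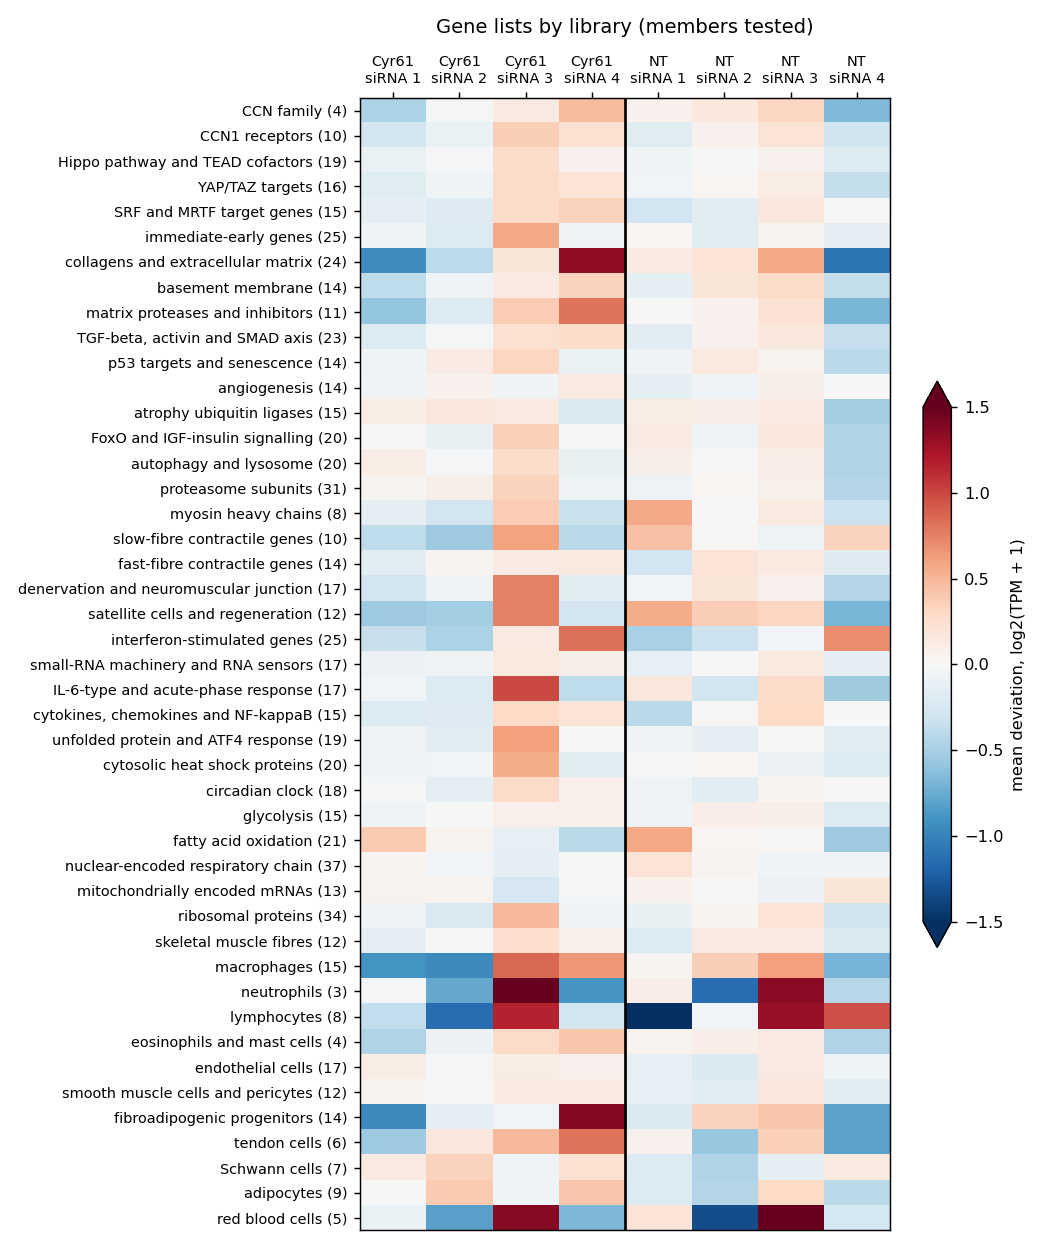
Mean deviation of each gene list from its own mean over the 8 libraries, on the scale of log2(TPM + 1), with the number of tested members in brackets; Cyr61 siRNA libraries are left of the line and NT siRNA libraries right of it. The matrix list runs from 1.33 in Cyr61 siRNA replicate 4 to -1.09 in NT siRNA replicate 4, and the interferon list is at 0.83 and 0.70 in these libraries.

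Because Cyr61 itself varied within both groups, genes were also fitted against its measured level, as a slope of log2(TPM + 1) on log2(Cyr61 TPM + 1); a slope of 1 means that a gene changes by the same factor as Cyr61. Over all 8 libraries limma called 0 of 11005 genes (0%). An unadjusted p under 0.05 was reached by 159 with a positive slope (1.44%) and 71 with a negative slope (0.645%), and voom called 0 with 171 under that threshold. The number under it was 543 without Cyr61 siRNA replicate 1, 440 without Cyr61 siRNA replicate 4 and 103 without NT siRNA replicate 2. Among genes averaging at least 5 TPM, positive slopes with the smallest p were those of Mphosph10, a protein of ribosome assembly (0.47), the porphyrin transporter Abcb6 (0.39), the transcription factor Klf10, which TGF-beta induces (0.64), the inositol phosphatase Minpp1 (0.43), Sec23a (0.41) and Acsl4, an acyl-CoA synthetase (0.38). Abcb6 was at 5.97, 5.91, 6.31 and 4.89 TPM in Cyr61 siRNA replicates 1 to 4, against 7.38, 7.65, 7.58 and 5.26 TPM in NT siRNA replicates 1 to 4; like Cyr61, it was lowest in replicate 4 of each group. At the same level, the negative slopes were led by the clock output gene Dbp (-1.34), the immediate-early nuclear receptor Nr4a1 (-0.57) and the interferon-stimulated gene Isg15 (-1.20).

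Leaving out Cyr61 siRNA replicate 4 changed that count: 20 of 10853 genes (0.184%) then passed, all with positive slopes, between 1.09 and 3.25. They were Col1a1, Col1a2, Col3a1, Col5a1, Col6a1, Col6a2, Col6a3, Fbn1, Loxl2, Lamb1, Nid1, Tnxb, Mmp2, Ctsk, Fstl1, Dpt, Pi16, Islr, Fndc1 and Angptl1, named here after their values were seen. Of these, 9 are in the list of collagens and matrix genes and 4 in that of fibroadipogenic progenitors, with 11 in at least 1 of these lists. Col1a1, the main chain of type I collagen, was at 2.94, 7.16, 10.7 and 79.8 TPM in Cyr61 siRNA replicates 1 to 4, against 15.5, 18.3, 26.0 and 2.75 TPM in NT siRNA replicates 1 to 4. It was lowest in the libraries with little Cyr61 (Cyr61 siRNA replicate 1 and NT siRNA replicate 4), highest among the 7 in NT siRNA replicates 2 and 3, where Cyr61 was highest, and far above them all in Cyr61 siRNA replicate 4, where Cyr61 was lowest. The slope was 2.71 in the 7 libraries (limma adjusted p = 0.0281) and 0.01 in all 8. For Col3a1, a chain of type III collagen, it was 3.25 without that library and 0.23 with it (adjusted p = 0.0281 without it), for the gelatinase Mmp2 2.00 and 0.17 (0.0281), and for the small matrix protein Dpt 1.42 and 0.09 (0.0390).

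Without Cyr61 siRNA replicate 4, the matrix list as a whole showed the same trend. Summed over 25 genes it was 239, 433, 476 and 1262 TPM in Cyr61 siRNA replicates 1 to 4, against 414, 559, 651 and 231 TPM in NT siRNA replicates 1 to 4. In the 7 libraries 23 of 24 tested members had a positive slope, 19 of them under an unadjusted p of 0.05, where 3.92% of all genes were (and 0.138% had a negative slope under it); in all 8 libraries 14 had a positive slope and 0 were under that threshold. With any other single library left out, the list's median slope ran from -0.38, without Cyr61 siRNA replicate 1, to 0.09, without Cyr61 siRNA replicate 2. Within groups and without both replicate 4 libraries 11 of 24 had a positive slope under an unadjusted p of 0.05, where 2.84% of all genes were. The within-group median slope was 1.43 without Cyr61 siRNA replicate 4 alone. Without NT siRNA replicate 4 alone it was -0.75, with 22 of 24 members negative. The siRNA contrast of these genes also depended on these libraries: the median difference was 0.04 with all 8, 0.42 without Cyr61 siRNA replicate 1, -0.39 without Cyr61 siRNA replicate 4 and -0.67 without both replicate 4 libraries. In that last fit 13 of 24 were lower with Cyr61 siRNA at an unadjusted p under 0.05, where 1.02% of all genes were, and 0 passed. Fibroadipogenic progenitor markers, which share some members with the matrix list, summed to 375, 699.9, 603 and 1421 TPM in Cyr61 siRNA replicates 1 to 4, against 483, 747, 766 and 418 TPM in NT siRNA replicates 1 to 4, and their part in the result was not tested.

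**Figure D4:**
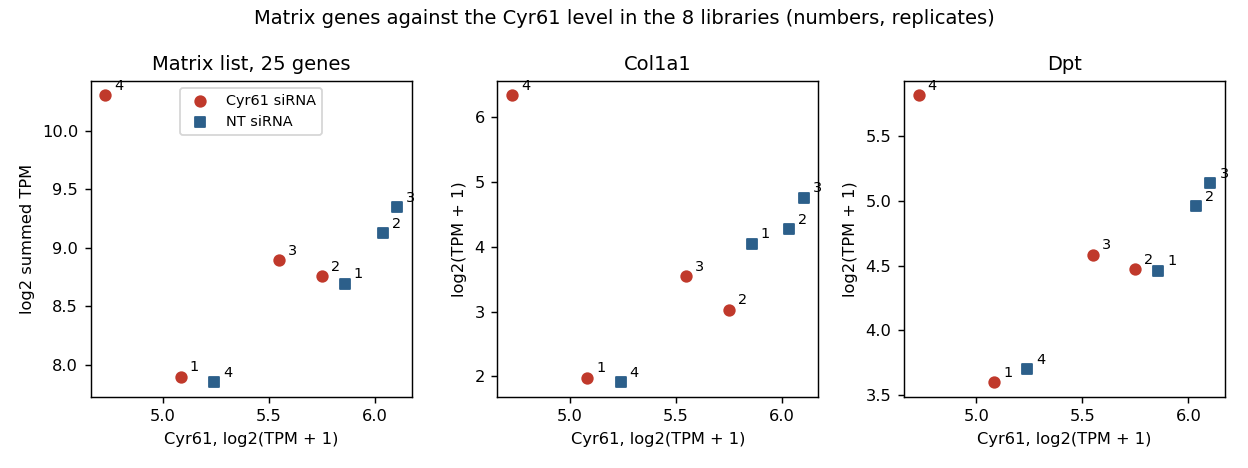
Log2 of the summed TPM of the matrix list, and log2(TPM + 1) of Col1a1 and Dpt, against the Cyr61 level in the 8 libraries; red circles are Cyr61 siRNA, blue squares NT siRNA, and numbers give the replicate. In 7 libraries the values tend to be higher where Cyr61 is higher, though not in strict order, and Cyr61 siRNA replicate 4 lies alone at the upper left.

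With a term for the siRNA group, so that only variation within each group counts, limma again called 0 of 11005 genes (0%), with a smallest adjusted p of 0.456. There were 1106 genes with a positive slope (10.05%) and 80 with a negative slope (0.727%) at an unadjusted p under 0.05, and voom called 0 with 540 under that threshold. With a further term for the replicate number the counts were 9 positive and 36 negative. That fit was less precise, with a median SE of 0.651 against 0.16 without the term. The median slope of all genes was 0.15. After median-ratio scaling it was -0.02, and the split was 348 positive (3.17%) and 335 negative (3.05%). Without both replicate 4 libraries there were 305 positive (2.84%) and 103 negative (0.959%); without NT siRNA replicate 4 alone the total was 162, without Cyr61 siRNA replicate 2 it was 3287, and without NT siRNA replicates 2 or 3 it was 632 or 694. Without Cyr61 siRNA replicate 4 alone it was 1230. The median slope was 0.15 without both replicate 4 libraries as well, and these libraries had the lowest Cyr61 of their groups.

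The 10 named genes with a positive slope were those with the smallest p at a mean of at least 5 TPM, and none passed. Among them Fbxo32, with the values given above, had a slope of 1.42 (95% interval 0.78 to 2.06; limma unadjusted p = 0.000881), and of 0.26 without both replicate 4 libraries. Gadd45a, a stress and denervation gene of muscle, was at 57.5, 81.2, 123 and 39.1 TPM in Cyr61 siRNA replicates 1 to 4, against 63.1, 83.1, 71.6 and 31.9 TPM in NT siRNA replicates 1 to 4. Its slope was 1.38 (0.82 to 1.93) in all 8 libraries and 1.02 without both replicate 4 libraries. Klf10 (0.92), the phosphatase regulator of the stress response Ppp1r15a (0.80), the polyamine enzyme Odc1 (1.04), the phosphatase Ssh2 (0.67), the ion cotransporter Slc12a2 (0.63), Zwint (0.66), Erbb2ip (0.75) and Ubxn4 (0.72) were the others so chosen. All 31 proteasome subunits had positive slopes with a median of 0.39, and 22 were under an unadjusted p of 0.05, where 10.05% of all genes were. That count was 15 after scaling, where 3.17% of all genes were, and 0 without both replicate 4 libraries, with a median of 0.23. Leaving out 1 library gave counts between 5 and 31. The count of 5 came without NT siRNA replicate 4, where 124 of 10936 genes had a positive slope under that threshold. The count of 31 came without Cyr61 siRNA replicate 2, where 3220 of 10955 genes did. Psmd11 and Psmc6, the list members with the smallest p, had slopes of 0.63 and 0.52. Of 15 atrophy ligases 9 were under the threshold with positive slopes, where 10.05% of all genes were. After scaling 4 were, where 3.17% of all genes were. Without both replicate 4 libraries 0 were, where 2.84% of all genes were. Leaving out 1 library gave between 2 ligases, without NT siRNA replicate 4, and 9, without NT siRNA replicate 1. Trim63 had a slope of 1.13, which was -0.76 without both replicate 4 libraries.

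Interferon-stimulated genes made up 5 of the 10 negative slopes with the smallest p at a mean of at least 5 TPM. The promoters of 2 of them are given because the members move together. They are the 250 bases before the RefSeq start (GRCm38.p6) of Isg15 on chr4:156200819-156201068, minus strand, and of Ifit3 on chr19:34583279-34583528, plus strand. Capitals mark matches to the core of the interferon-stimulated response element (GAAA, any 2 bases, then GAAA); Isg15 has 3 that overlap each other, and Ifit3 has 2 on the opposite strand:
Isg15: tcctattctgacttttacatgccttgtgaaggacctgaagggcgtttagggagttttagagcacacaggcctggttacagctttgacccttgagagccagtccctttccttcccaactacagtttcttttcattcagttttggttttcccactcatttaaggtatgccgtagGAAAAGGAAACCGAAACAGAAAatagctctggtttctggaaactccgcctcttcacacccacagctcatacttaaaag
Ifit3: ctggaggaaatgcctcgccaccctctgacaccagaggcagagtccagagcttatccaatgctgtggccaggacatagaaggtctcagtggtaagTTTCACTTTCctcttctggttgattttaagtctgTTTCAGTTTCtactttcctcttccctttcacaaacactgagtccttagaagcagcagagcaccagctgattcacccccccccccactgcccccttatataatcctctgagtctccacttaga
The motif, searched on both strands, was in the window of 11 of 19 tested interferon-stimulated genes that have one (57.9%) and of 3.04% of 27025 genes.

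Irf7, the factor that amplifies type I interferon, was at 3.86, 2.88, 6.07 and 15.1 TPM in Cyr61 siRNA replicates 1 to 4, against 3.77, 3.59, 4.75 and 14.9 TPM in NT siRNA replicates 1 to 4. Isg15, a ubiquitin-like modifier, was at 3.04, 2.78, 4.87 and 14.0 TPM in Cyr61 siRNA replicates 1 to 4, against 3.53, 2.63, 3.79 and 13.2 TPM in NT siRNA replicates 1 to 4. In both groups replicate 4 stood far above the other libraries, and replicate 3 came next. The within-group slopes were -1.71 for Irf7, -1.75 for Isg15, -2.03 for Ifit3 and -1.53 for the virus-tethering protein Bst2, with limma unadjusted p-values from 0.00276 to 0.00547. Values of Ifit3 are uncertain, since near-identical copies may share its reads. Of 25 tested members 24 had negative slopes with a median of -0.92, and 16 were under an unadjusted p of 0.05, where 0.727% of all genes were; after scaling 23 were, where 3.05% of all genes were. Without both replicate 4 libraries 0 of 24 were, and the median was 0.27. Leaving out NT siRNA replicate 4 alone left 4 of 24, where 38 of 10936 genes had a negative slope under that threshold. Leaving out Cyr61 siRNA replicate 4 alone left 8 of 24, where 30 of 10853 genes did. Summed over 32 members, the list was at 130.2, 122, 193 and 341 TPM in Cyr61 siRNA replicates 1 to 4, against 113, 139.8, 172 and 279 TPM in NT siRNA replicates 1 to 4. Further negative slopes of that choice were those of the slow myosin light chain Myl2 (-1.76), the NAD salvage kinase Nmrk2 (-1.96), Dbp (-1.58), Slc9a3r2 (-0.50) and the antiviral enzyme Rsad2 (-0.81). Myl2 was at 9.68 TPM in Cyr61 siRNA replicate 4 and 14.7 TPM in NT siRNA replicate 4, and at 1.49 to 5.21 TPM in the other 6 libraries.

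**Figure D5:**
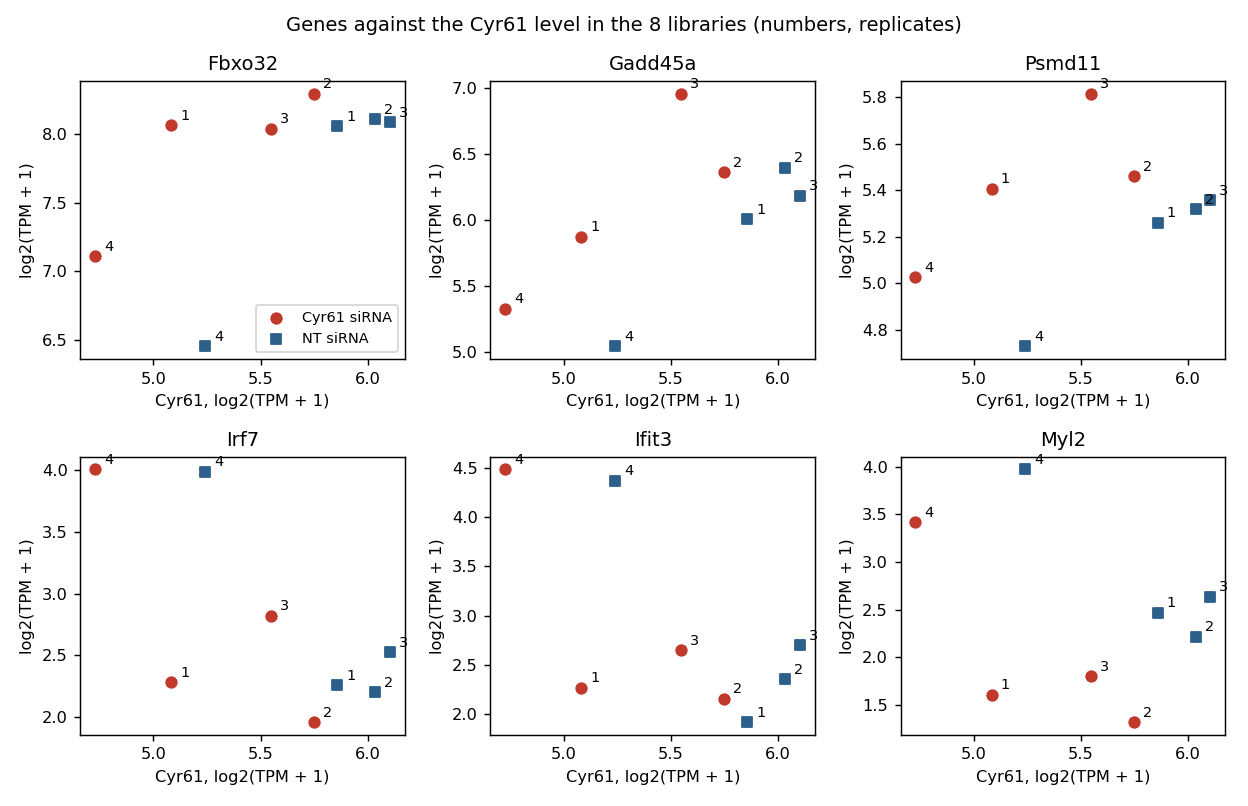
Log2(TPM + 1) of 6 genes against the Cyr61 level in the 8 libraries; red circles are Cyr61 siRNA, blue squares NT siRNA, and numbers give the replicate. Fbxo32 is low, and Irf7, Ifit3 and Myl2 are high, in both replicate 4 libraries, while the other 6 libraries show little slope for Fbxo32, Irf7 and Ifit3. In those 6 libraries Myl2 is higher with NT siRNA, at 3.64 to 5.21 TPM, than with Cyr61 siRNA, at 1.49 to 2.48 TPM.

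The same slope was fitted in the 22 libraries without siRNA, with a term for each of their 6 groups. It was positive for 11298 of 12157 genes, with a median of 0.20. limma called 55 genes (0.452%), all with positive slopes, and an unadjusted p under 0.05 was reached by 33.8% of genes with a positive slope and 0.296% with a negative one. After median-ratio scaling the median was 0.00 and 0 genes passed, so the calls depended on the scaling. Then 2.50% of genes with a positive slope and 2.52% with a negative one were under that threshold. Without LLC replicate 3, 0 passed; without mice of 24 months replicate 3, 1067; without LLC control replicate 1, 971; and with any of the other 19 left out, between 14 and 132. In all, 16 of the 22 moved the count by more than 1.5 times. Nqo1, an oxidoreductase of the antioxidant response, had the smallest p, with a slope of 0.54 (limma adjusted p = 0.00824), followed by Ctxn3 at 0.95 (0.00862) and Pnmt at 0.71 (0.0132). In the siRNA experiment their within-group slopes were 0.35, 0.68 and 0.40. Mstn had a slope of 0.66 in the 22 libraries (adjusted p = 0.0327) and of 0.15 in the siRNA experiment.

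For interferon-stimulated genes the order of the slopes depended on the replicate 4 libraries. In the 22 libraries all 28 tested members had positive slopes, with a median of 0.30, where 11298 of 12157 genes did, with a median of 0.20. After scaling 27 of 28 had positive slopes, where 6110 of 11987 genes did. In the siRNA experiment 24 of 25 had negative within-group slopes, where 2252 of 11005 genes did. Without both replicate 4 libraries 18 of 24 had positive slopes in the siRNA experiment, with a median of 0.27. That is near all genes, of which 7523 of 10745 had positive slopes, with a median of 0.15. A single limma fit of all 30 libraries with a term for the difference in slope called 0 of 12340 genes (0%), with a smallest adjusted p of 0.0946 and 127 genes with a positive (1.03%) and 313 with a negative difference (2.54%) at an unadjusted p under 0.05. It called 15 without Cyr61 siRNA replicate 1, 3 without Cyr61 siRNA replicate 3, 2 without Cyr61 siRNA replicate 4 and 1 without any one of NT siRNA replicates 1, 2 and 3. For Irf7 the slope in the siRNA experiment minus that in the other libraries was -2.22 (adjusted p = 0.0981), or -0.59 without both replicate 4 libraries (adjusted p = 1.000), for Ifit3 -2.44 (0.165), for Bst2 -1.84 (0.155) and for Isg15 -2.13 (0.238). Of 30 tested interferon-stimulated genes 24 were under an unadjusted p of 0.05 with a negative difference, where 2.54% of all genes were. Fbxo32 had a positive slope in both, 1.42 in the siRNA experiment and 0.83 in the other 22 libraries, with a difference of 0.59 (adjusted p = 1.000). For Gadd45a the slopes were 1.38 and 0.22, a difference of 1.16 (adjusted p = 1.000). Nmrk2 had a negative slope in both, -1.96 in the siRNA experiment and -0.79 in the other 22 libraries.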

How the data were processed

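The muscle libraries were made with a TruSeq stranded mRNA kit and read on a NovaSeq, as the labels' protocols state. The authors deposited 1 table of TPM for 47643 genes in 30 libraries, each summing to 1000000; the build was mm10, per the submitters' processing notes, and the aligner and counter are not given in the labels or in the table. Groups were taken from the sample labels. TPM keeps no depth, but for 14109 of 20221 genes with a single length (69.8%) the values were whole multiples of 1 read within 0.05, and these recovered reads gave the library totals.

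limma 3.58.1 in R 4.3.3 was fitted to log2(TPM + 1) with a trended prior and Benjamini-Hochberg adjustment, on genes with at least 1 TPM in at least 4 of the libraries fitted. Each gene was fitted against siRNA group, against log2(Cyr61 TPM + 1) in 8 libraries, against it with a group term, and against it with 6 group terms in the other 22 libraries. Cyr61 was also tested by exact permutation. Because a few genes take much of each TPM total, values were also rescaled by median ratios; other pseudocounts (0.1, 0.5), no filter, a filter of 5 TPM, rescaling without mitochondrial genes, robust variances, array weights, a threshold of 0.01, and leaving out each library were tried. The voom fits on recovered reads, the fits without both replicate 4 libraries and the fit of all 30 libraries with a difference in slope were chosen after seeing the data. The members and the 46 gene lists were chosen with earlier results of these data known.

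Genes were named by rule: those that passed, or otherwise the genes with the smallest unadjusted p and a mean of at least 5 TPM, up to 10 in each direction, clone names and pseudogenes passed over; always the CCN genes, Fbxo32, Trim63, Mstn and the myosins Myh1, Myh2, Myh4 and Myh7; and from each list up to 2 members with the smallest p. Not every gene the rule allows is printed. Car3 and Stk40 are among those it allows, but were picked from them for print after their values were seen. Genes said to be named after their values were seen were also chosen that way. Symbols were matched to the GENCODE annotation, which also gave the gene lengths, directly (45134) or by an older symbol (620), and 1889 were not matched. Promoter windows are from RefSeq, GRCm38.p6. The labels call the libraries biological replicates and do not name the animals, so p-values measure the spread between these libraries.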

Additional observations from a re-analysis of the deposited data

Results flagged for a closer look

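In 154 groups of 4 libraries (the named genes and the list sums), 25 had a highest or lowest library whose gap to its nearest neighbour exceeded Dixon's 95% critical share of the group's range, which is 16.2%; chance gives about 1 in 20 groups. That share cannot be read against chance here, since many of the genes were named for a small p on the Cyr61 level, on which the replicate 4 libraries stand apart, and the same libraries recur in all groups.

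Cyr61 siRNA replicate 4 stood alone within its group for Col1a1 at 79.8 TPM, Col3a1 at 169 TPM, Nov at 17.0 TPM, Myl2 at 9.68 TPM, Ifit3 at 21.4 TPM and, on the low side, Mphosph10 at 5.06 TPM. NT siRNA replicate 4 stood alone within its group for Irf7 at 14.9 TPM, Isg15 at 13.2 TPM, Ifit3 at 19.7 TPM, Bst2 at 43.0 TPM, Dbp at 38.6 TPM, Nmrk2 at 239 TPM and Myl2 at 14.7 TPM, and on the low side for Fbxo32 at 86.5 TPM, Erbb2ip at 10.8 TPM and Abcb6 at 5.26 TPM.

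Cyr61 siRNA replicate 3 stood above its group for Tnnt1 at 12.4 TPM, Tnni1 at 14.4 TPM, Igkv12-46 at 3.63 TPM, Parp6 at 16.7 TPM and Car3 at 4208 TPM. The same library was above its group in the summed level of slow-fibre contractile genes at 473 TPM, of lymphocyte markers at 5427 TPM and of genes of acute-phase and IL-6-type responses at 1307 TPM. NT siRNA replicate 1 was above its group for Myh2 at 358 TPM.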

How the results depend on the processing

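The count of genes that passed between Cyr61 siRNA and NT siRNA was 0 under every alternative run, and so was the count within groups. Over the 8 libraries it was 0 to 20 with 1 library left out, and 0 under the other alternatives. For the other 22 libraries it was 55, and 18 with no filter, 0 after median-ratio scaling, 1 after rescaling without mitochondrial genes, 0 with array weights, 3 at an adjusted p under 0.01, and 0 to 1067 with 1 library left out. The difference in slope called 0 to 15 genes with 1 library left out. The Cyr61 difference of -0.53 ranged from -0.72 to -0.35 with 1 library left out.

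Correlations of same-numbered deviations were 0.50, 0.28, 0.32 and 0.09, and those of differently numbered libraries ran from -0.4 to 0.28. Both replicate 3 libraries had fewer recovered reads (26433608 and 26335274) than the others (29640979 to 30395406). Apart from the 0.09 of replicate 4, the same-numbered correlations were at or above every differently numbered one. No label ties the numbers to shared animals or days, so the main fits did not take the libraries as pairs. Those fits do not account for anything that same-numbered libraries share. Whether same-numbered libraries share a day or batch was not tested, so results with a replicate block follow. Cyr61 was lower with Cyr61 siRNA in each same-numbered pair. A replicate block left 0 genes called, with 597 higher and 37 lower at an unadjusted p under 0.05 for the siRNA contrast, 41 positive and 596 negative for the slope over 8 libraries (159 and 71 without the block) and 9 positive and 36 negative within groups (1106 and 80 without it), and an exact permutation p of 0.125 for Cyr61, the smallest it can give. Slopes within groups under the block were -0.14 for Odc1, -0.02 for Ubxn4, 0.41 for Isg15, 0.27 for Rsad2 and -0.05 for Psmd11. With array weights the genes at an unadjusted p under 0.05 were 257 higher and 635 lower for the contrast, against 100 and 9 without them, and 3865 positive and 97 negative within groups.

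Of 1696 values for 84 gene results, 1610 kept direction and side of the threshold. With array weights the siRNA difference was -0.07 for Nov, and -0.01 for each of Fbxo32, Mstn and Myh4. Without both replicate 4 libraries it was -0.53 for Nov, slopes within groups were -0.76 for Trim63, 0.07 for Isg15, 0.38 for Ifit3, 0.08 for Bst2 and 0.35 for Rsad2, and the difference in slope was -0.57 for Fbxo32. After median-ratio scaling the slopes over 8 libraries were -0.41 for Col1a1, -0.24 for Col3a1, -0.14 for Mmp2 and -0.14 for Dpt; without mitochondrial genes they were -0.37, -0.21, -0.13 and -0.14 in that order. With 1 library left out they ran from -0.63 to 2.71, -0.49 to 3.25, -0.34 to 2.00 and -0.26 to 1.42. Leaving out 1 library, the siRNA difference ran from -0.28 to 0.73 for Nov, -0.18 to 0.10 for Wisp2, -0.21 to 0.46 for Fbxo32, -0.12 to 0.54 for Trim63 and -0.15 to 0.52 for Myh2. The cause was not tested. With 4 libraries a group, a median 95% interval of 0.29 to either side limits what the contrast can show.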
